A study of Homo sapiens with 5 samples.

Results

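The genes described here are 10 markers of B-cell stages, measured on Affymetrix whole-transcript arrays in Nalm6, an established line grown from a human acute lymphoblastic leukaemia of B-cell precursors. They were chosen by name, as probe sets whose platform annotation gives exactly 1 symbol, with the brightest probe set kept per gene, and all 10 were found among the 18417 genes measured. The precursor markers are CD34, MME, CD9, CD24, CD99, VPREB1 and VPREB3, and the mature markers are MS4A1, CR2 and CD40. Of the 5 clones, 2 expressed a nonsense short hairpin RNA (control shRNA) and 3 expressed a hairpin against MondoA, the glucose-responsive transcription factor encoded by MLXIP. Each clone gave 1 array, so errors given without another name are the SD between clones (n = 2 for control, n = 3 for MondoA shRNA). All clones were grown in medium with 20% fetal bovine serum and 200 mg/dl D-glucose. The hairpin sequences and the way clones were derived are not given in the sources used here, and a clone may carry differences of its own.

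B-cell development in the bone marrow is followed by surface proteins that come and go in order. CD34 marks the earliest progenitors, MME (CD10) and CD24 mark precursors, and the surrogate light chain, built from VPREB1 and IGLL1, pairs with the newly made mu heavy chain to form the pre-B receptor. MS4A1 (CD20), CR2 (CD21) and full use of CD40 belong to later stages, although CD24 and CD40 are not restricted to the stage they are grouped with, and VPREB3 is also made by some mature B cells.

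The bases before the transcription start are shown for the pair of members that read lower in every MondoA shRNA clone (CD99 and CD24), for VPREB1 and VPREB3, and for CR2, the member whose window holds the E-box bound by MondoA with its partner MLX. RefSeq windows (assembly GRCh38.p14) matched 8 of the 10 members, and MS4A1 and CD40 have no entry in the table used. Each line gives 250 bases, 5′ to 3′ on the gene's strand, ending at the base before the start, and the first listed start was taken where a gene has several. Capitals mark matches on either strand to CACGTG (the MondoA and MLX E-box), CAGGTG (an E-box bound by E2A), ATGCAAAT (the immunoglobulin octamer) or GGGCGG (the GC box). The motif of EBF1, a factor of early B cells, was also searched and matched no member.
CD99: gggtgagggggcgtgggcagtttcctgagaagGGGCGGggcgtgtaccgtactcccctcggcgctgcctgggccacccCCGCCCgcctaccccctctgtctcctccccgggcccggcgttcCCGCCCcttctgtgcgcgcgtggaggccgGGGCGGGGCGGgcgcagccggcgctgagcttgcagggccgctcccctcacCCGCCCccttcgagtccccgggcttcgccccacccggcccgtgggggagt
CD24: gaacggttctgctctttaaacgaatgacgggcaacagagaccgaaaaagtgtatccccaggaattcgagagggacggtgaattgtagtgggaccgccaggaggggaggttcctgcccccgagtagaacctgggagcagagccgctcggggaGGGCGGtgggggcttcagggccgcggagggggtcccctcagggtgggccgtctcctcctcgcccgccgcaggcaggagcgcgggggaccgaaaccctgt
VPREB1: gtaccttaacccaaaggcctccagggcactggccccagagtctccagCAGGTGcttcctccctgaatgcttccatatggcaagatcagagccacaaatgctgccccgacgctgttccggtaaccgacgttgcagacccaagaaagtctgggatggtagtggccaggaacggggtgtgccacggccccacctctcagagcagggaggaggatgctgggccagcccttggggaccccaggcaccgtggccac
VPREB3: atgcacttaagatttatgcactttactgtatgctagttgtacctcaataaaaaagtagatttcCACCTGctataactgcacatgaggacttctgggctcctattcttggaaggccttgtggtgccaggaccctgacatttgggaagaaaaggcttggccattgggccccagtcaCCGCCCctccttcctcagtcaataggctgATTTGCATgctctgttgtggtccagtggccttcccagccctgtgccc
CR2: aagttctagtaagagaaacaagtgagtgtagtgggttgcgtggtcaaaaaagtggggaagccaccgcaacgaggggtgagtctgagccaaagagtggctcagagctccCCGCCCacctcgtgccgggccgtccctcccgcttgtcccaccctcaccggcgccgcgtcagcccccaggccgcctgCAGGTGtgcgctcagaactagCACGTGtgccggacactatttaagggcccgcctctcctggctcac

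The CD99 window (chrX:2691045-2691294, plus strand, in the region that X and Y share) held 6 GC boxes, of which a pair overlap, and no E-box of either kind. In the CD24 window (chr6:106975628-106975877, minus strand) 1 GC box was found. The G and C content was 78% in CD99 and 65.6% in CD24. GC boxes are common, and 42.3% of all 27305 windows of this length held one. The windows of both VPREB genes held CAGGTG, VPREB1 (chr22:22244536-22244785, plus strand) starting 203 bases before the start and VPREB3 (chr22:23754426-23754675, minus strand) 187 bases before it. CR2 held it too, 66 bases before the start, which makes 3 of 8 members against 17.5% of all windows. VPREB3 also held the octamer 47 bases before the start, a motif found in 1.66% of all windows. CACGTG lay 45 bases before the start of CR2 (chr1:207454078-207454327, plus strand) and in 6.49% of all windows, and the EBF1 motif was in 1.08% of them. These matches are descriptions of letters, and no binding was measured.

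All values below are RMA expression (robust multi-array average) in log2 units, and differences are MondoA shRNA minus control shRNA. Probe sets differ in how brightly they read, so a level is called dim or bright only as signal on the array, not as an amount of RNA. The number of arrays limits the precision. MLXIP itself read 6.42 in both control clones and 6.42, 6.47 and 6.29 in MondoA shRNA clones 1, 2 and 3. As that is a difference of -0.03 ± 0.06 (SE) with an adjusted p of 0.959 by limma, the 3 clones are called by their label. Of the B-lineage genes CD79A, CD79B, PAX5, BLNK and CD22, 5 of 5 had a mean level above 5. Of the markers of other cells, 7 of 8 measured for T and natural killer cells, 6 of 6 for myeloid cells, 5 of 5 for erythroid cells and megakaryocytes and 6 of 6 for fibroblasts had a mean level at or below 5, the exception being NKG7 (6.17 to 6.74 over the arrays). The mean level over those lists ran from 2.95 to 3.29 in control and up to 3.30 in MondoA shRNA clones. Of 6 plasma cell genes, 3 had a mean level above 5 (SDC1, XBP1 and IRF4). Of the same 6, 1, the immunoglobulin joining chain JCHAIN, was higher at an unadjusted limma p under 0.05 (difference 1.65). Among all genes 1.55% were. In that list 2 differences were above 0 and 4 below, with a median of -0.004. XBP1 (difference -0.15) read 10.34 and 10.25 in control and 9.95, 10.25 and 10.24 in MondoA shRNA clones. Control clone 2 and MondoA shRNA clone 2 were thus level for it. The part of other cell types in the results below was not tested.

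No member passed the adjusted threshold of 0.05 in limma (Benjamini-Hochberg over all 18417 genes), and 1, CD99, had an unadjusted p under 0.05. Among all genes 0% passed the adjusted threshold and 3.73% the unadjusted one, the latter being 6.39% among genes with a mean level above 5. CD99 and CD24 were the 2 members with every MondoA shRNA clone below both control clones, which held for 5.18% of all genes and for 9.26% of the 7450 genes with a mean level above 5. On the higher side, where 4.85% of all genes and 7.74% of those brighter genes lay, there were 0 members, and the groups overlapped for the other 8. The members' median difference was -0.02, against 0.00 over all genes. In these bulk samples, fewer cells that make a transcript and less of it per cell cannot be told apart.

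**Figure D1:**
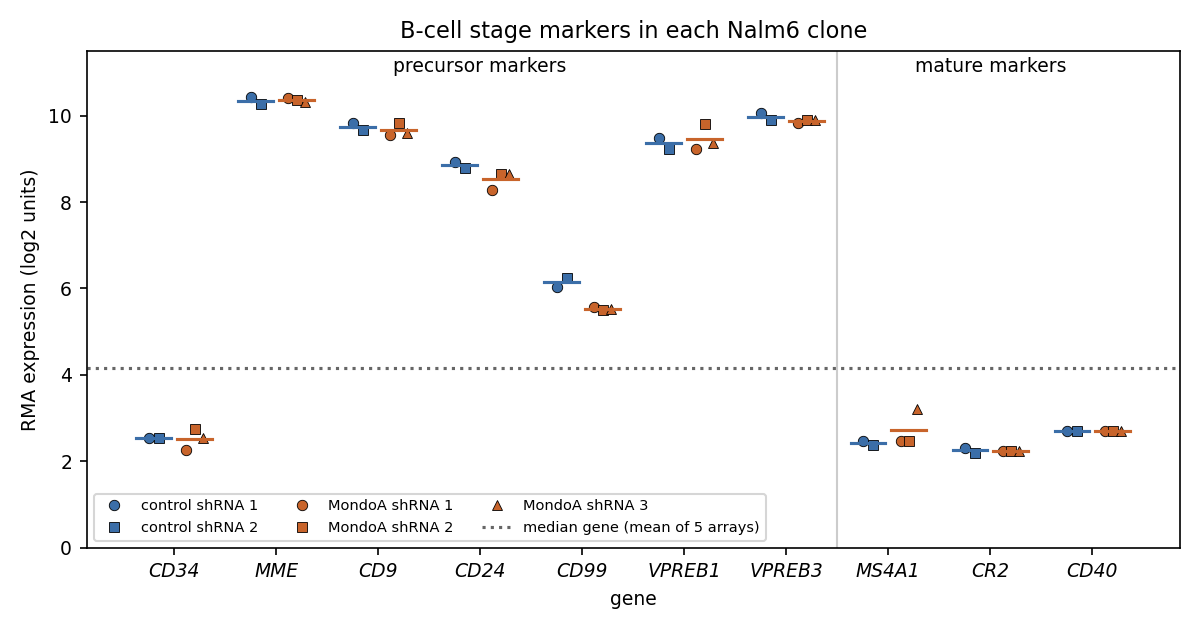
RMA expression (log2 units, vertical axis) of the 10 markers in each of the 5 arrays, with control shRNA in blue, MondoA shRNA in orange, and short lines for the group means. The CD99 points of the groups are well separated and those of CD24 are narrowly separated, while CD34 and the 3 mature markers lie below the median gene (dotted line, 4.15) in every array.

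CD99, a surface glycoprotein of adhesion and migration, showed the largest difference of the members. It read 6.03 and 6.25 in control clones 1 and 2, and 5.57, 5.50 and 5.53 in MondoA shRNA clones 1, 2 and 3. The MondoA shRNA clones lay close together and all below the controls. The group means were 6.14 ± 0.15 and 5.54 ± 0.04, a difference of -0.61 ± 0.08 (SE, 95% interval -0.83 to -0.38), or 1.52-fold lower. By limma the unadjusted p was 0.00225, the rank 69 among 18417 genes, and the adjusted p 0.600. Among genes whose mean level exceeded 5, 1.87% had a difference at least as large in size. CD99 lies in the region shared by X and Y. A pair of probe sets is annotated to it, and both held identical values, so the second is no separate measurement. With control clone 1 left out, CD99 passed (difference -0.71, adjusted p = 0.0342 by limma), in a fit where 752 genes passed and whose single control takes its spread from the other clones. With control clone 2 left out instead it did not pass (difference -0.50, adjusted p = 0.0713 by limma).

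CD24, a small glycoprotein anchored in the membrane by lipid, read 8.92 and 8.78 in the control clones and 8.28, 8.64 and 8.64 in the MondoA shRNA clones. All MondoA shRNA clones were lower, clone 1 most of all, and the gap between the groups was narrow beside the spread among MondoA shRNA clones. The means were 8.85 ± 0.10 and 8.52 ± 0.21, a difference of -0.33 ± 0.15 (SE, 95% interval -0.77 to 0.11) with an unadjusted p of 0.105 and an adjusted p of 0.833 by limma. Without MondoA shRNA clone 1 the difference was -0.21, more than 1.5 times smaller in size. The genome holds near-identical copies of CD24, and signal from them was not told apart.

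The surrogate chain members stayed within the spread of the clones. VPREB1, the variable-like part of the surrogate light chain, read 9.49 and 9.23 in control clones and 9.22, 9.82 and 9.37 in MondoA shRNA clones 1, 2 and 3. Clone 2 stood above the others and clone 1 at the bottom, so that the MondoA shRNA clones bracketed the controls. The difference of 0.11 ± 0.23 (SE) had a 95% interval from -0.56 to 0.77 (adjusted p = 0.928 by limma), and it turned to -0.06 without MondoA shRNA clone 2. IGLL1, the partner in the surrogate light chain, was also highest in MondoA shRNA clone 2, at 9.57 against 9.34 and 9.13 in clones 1 and 3 and 9.09 and 9.18 in the controls (difference 0.21, unadjusted p = 0.247 by limma). VPREB3, which binds mu heavy chains inside precursor B cells, read 10.1 and 9.89 in control clones and 9.82, 9.89 and 9.89 in MondoA shRNA clones. Its difference of -0.11 ± 0.06 (SE, 95% interval -0.29 to 0.08, adjusted p = 0.833 by limma) rested mainly on control clone 1, since control clone 2 had the same value as MondoA shRNA clones 2 and 3, and it was -0.02 without control clone 1 and -0.19 without control clone 2.

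MME and CD9 were bright in all clones and differed little. For MME, the surface peptidase CD10 of common acute lymphoblastic leukaemia, the control clones read 10.4 and 10.3 and the MondoA shRNA clones 10.4, 10.4 and 10.3. They differed by 0.02 ± 0.06 (SE), and the 95% interval was -0.17 to 0.20. CD9, a tetraspanin that organises membrane proteins, read 9.83 and 9.66 in control and 9.55, 9.83 and 9.61 in MondoA shRNA clones, a difference of -0.08 ± 0.12 (SE, 95% interval -0.43 to 0.26). The groups overlapped for both genes, and adjusted p by limma was 1.00 for MME and 0.857 for CD9. A change in MME of over 0.20 log2 units in either direction lies outside its interval, while CD9 and VPREB1 have wider ones.

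CD34, the sialomucin of stem and progenitor cells, was dim, at 2.55 in both control clones and 2.26, 2.74 and 2.55 in MondoA shRNA clones 1, 2 and 3. The third MondoA shRNA clone equalled the controls and the others fell on either side of them (difference -0.03 ± 0.17 SE, 95% interval -0.51 to 0.45). On every array the CD34 signal lay among the lowest 25% of genes, as did those of CR2 and CD40, which describes brightness alone. Whether any dim gene was detected above background was not assessed, as no detection calls were used here.

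**Figure D2:**
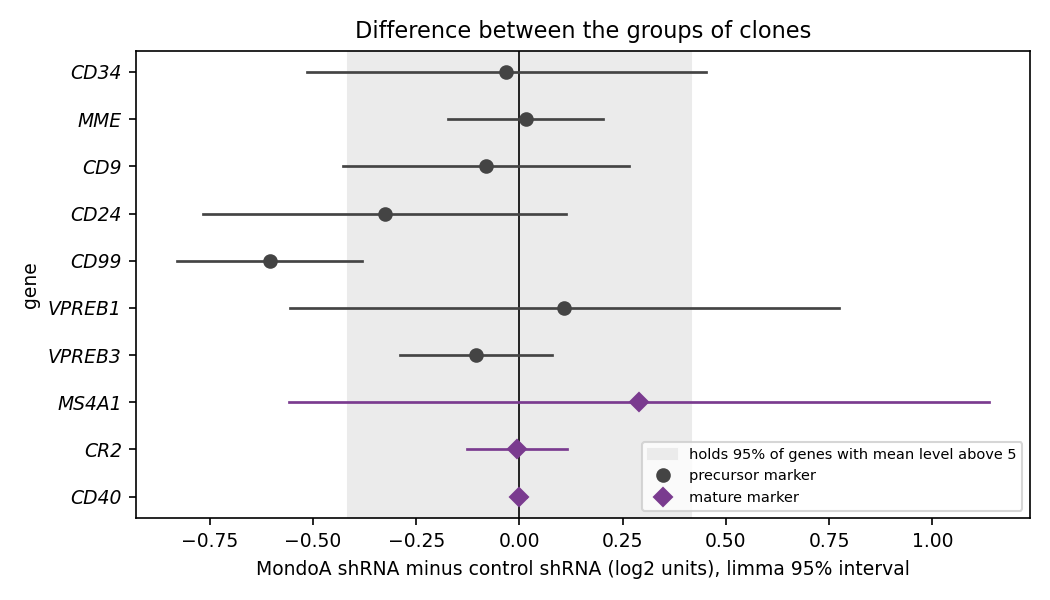
Difference between the groups (MondoA shRNA minus control shRNA, log2 units, horizontal axis) for each of the 10 markers, with limma's 95% interval as a line and the range holding 95% of genes with a mean level above 5 (within 0.42 of 0) in grey. The interval of CD99 (-0.83 to -0.38) does not reach 0, and the intervals of the others do.

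The mature markers were dim in both groups. MS4A1, the membrane protein CD20, read 2.48 and 2.39 in the controls, 2.48 in MondoA shRNA clones 1 and 2, and 3.21 in clone 3. Clone 3 alone stood higher, still below the median gene level of 4.15, and the other 4 clones lay within 0.10 of each other. The difference of 0.29 ± 0.29 (SE, 95% interval -0.56 to 1.14, adjusted p = 0.833 by limma) became 0.05 without that clone, 0.41 without either of the other MondoA shRNA clones and 0.61 with arrays weighted by their precision (adjusted p from 0.635 to 1.00 over all alternatives). CR2, the receptor for complement fragments on mature B cells, read 2.32 and 2.20 in the controls and 2.25 in all MondoA shRNA clones, a difference of -0.01 (95% interval -0.13 to 0.11). CD40, the receptor for help from T cells, read 2.70 in all 5 arrays. Equal values in several arrays are common in this table, with 54% of all genes at the same value in at least 3 arrays and 9.7% in all 5, and 5 of the 10 members were of the first kind (CD34, VPREB3, MS4A1, CR2 and CD40). For such genes the measured spread, and with it the interval, can be too small.

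Precursor against mature markers were compared per clone, with each gene set to 0 at its own mean over the 5 arrays. The mean of the 7 precursor markers minus that of the 3 mature markers was 0.16 and 0.13 in control clones 1 and 2, and -0.13, 0.11 and -0.26 in MondoA shRNA clones 1, 2 and 3. All MondoA shRNA clones were lower than the controls, clone 2 only narrowly (0.11 against 0.13 in control clone 2). That order rested on CD99, without which MondoA shRNA clone 2 was not below the controls. The group means were 0.14 ± 0.02 and -0.10 ± 0.19, a difference of -0.24, made up of -0.15 for the precursor markers minus 0.09 for the mature markers, of which MS4A1 alone was above 0. In MondoA shRNA clone 1 the low value came from the precursor side (-0.18), and in clone 3 mainly from the mature side (0.20), where only MS4A1 stood above its mean. Without MondoA shRNA clone 3 the difference was -0.16, without MS4A1 -0.14 and without CD99 -0.16, the last 2 chosen after seeing the data. No test is given for this sum, because its members were chosen with results of these data known.

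**Figure D3:**
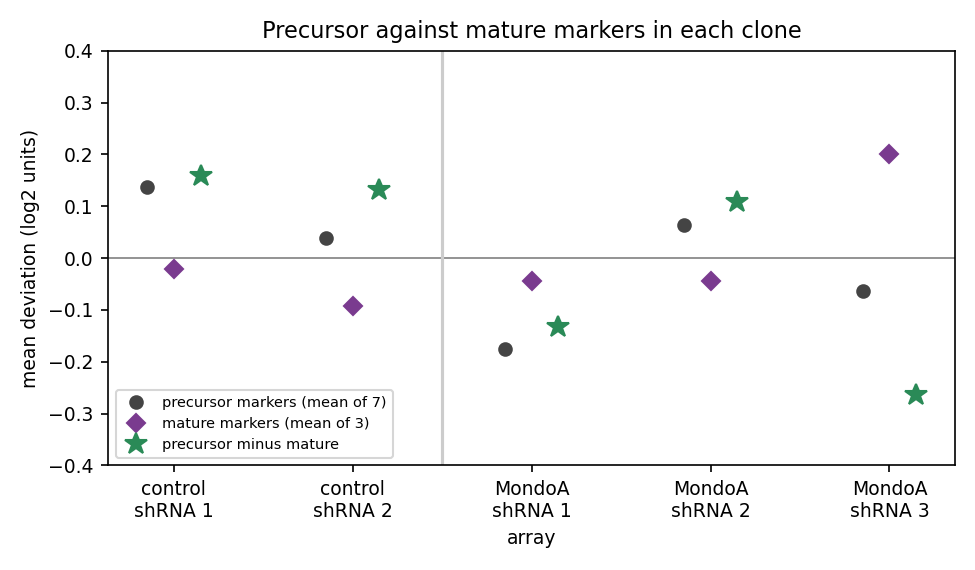
Mean deviation from the 5-array mean (log2 units, vertical axis) of the 7 precursor markers, the 3 mature markers and their difference, in each of the 5 arrays. The difference (stars) is 0.16 and 0.13 in the controls and -0.13, 0.11 and -0.26 in MondoA shRNA clones 1, 2 and 3.

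The clones also differed from each other within a group. Of the 6 members with a mean level above 5, 4 were highest in control clone 1 and 4 were lowest in MondoA shRNA clone 1. Control clone 1 read above control clone 2 for 5 of these 6 members, CD99 being the exception, and for 55.9% of all genes with a mean level above 5. The median deviation of the 6 members was 0.14 in control clone 1 and -0.17 in MondoA shRNA clone 1, against 0.01 and -0.06 for all genes above that level. With every array set to the median of its genes, the differences were -0.61 for CD99, -0.33 for CD24, -0.09 for CD9 and -0.11 for VPREB3, as large as without that step.

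**Figure D4:**
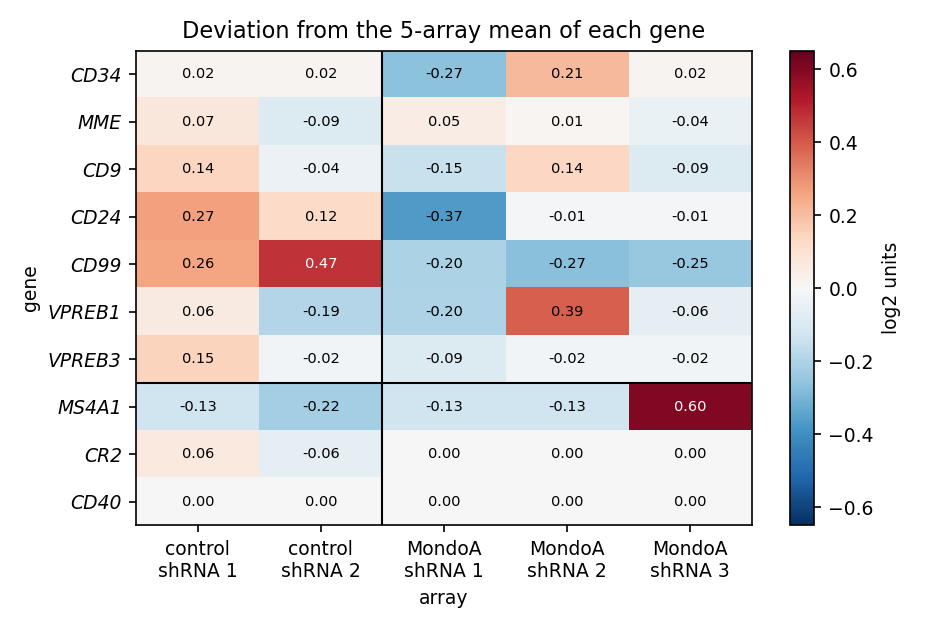
Deviation of each of the 10 markers (rows) from its mean over the 5 arrays (columns), in log2 units, red above and blue below the mean. CD99 is above its mean in both controls (0.26 and 0.47) and below it in the MondoA shRNA clones (-0.20 to -0.27), while VPREB1 stands out in MondoA shRNA clone 2 (0.39) and MS4A1 in clone 3 (0.60).

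Related genes were taken from lists chosen with earlier results of these data known, and none of their members passed the adjusted threshold in limma. Among 14 other precursor-stage genes, 2 were lower and 0 were higher at an unadjusted limma p under 0.05, beside 2.18% of all genes lower and 1.55% higher, and the list's median difference was -0.003. DNTT, the terminal transferase that adds bases at antigen receptor joints, read 10.6 and 10.5 in control and 9.15, 9.73 and 9.09 in MondoA shRNA clones. All MondoA shRNA clones were lower, with a difference of -1.19 ± 0.24 (SE, unadjusted p = 0.0110, adjusted p = 0.833 by limma). CD38, an ectoenzyme of precursors and plasma cells, read 9.38 and 9.12 against 8.58, 8.93 and 8.75, a difference of -0.50 ± 0.15 (SE, unadjusted p = 0.0341, adjusted p = 0.833 by limma). DNTT and CD38 were among 4 of the 14 genes below both controls in every MondoA shRNA clone. ENG (difference 0.24) was the 1 gene above both in every such clone. For SPN, also among the 4, control clone 2 and MondoA shRNA clones 2 and 3 all read 6.41, so its groups barely separated. Among all genes 5.18% lay below and 4.85% above, or 9.26% and 7.74% of those with a mean level above 5. DNTT and CD38 were named by their p, so their separation is not a further result.

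Of 22 measured mature-stage surface genes, 3 were higher and 0 were lower at an unadjusted limma p under 0.05, beside 1.55% and 2.18% of all genes. The list median was 0.02. Every MondoA shRNA clone was above both controls for 3 genes and below both for 1, CD69 (difference -0.14). Among all genes these shares were 4.85% and 5.18%. CD22, an inhibitory partner of the B-cell receptor, read 6.15 and 6.35 in control and 7.14, 7.73 and 7.68 in MondoA shRNA clones. CD180, a relative of the Toll-like receptors, read 3.75 and 3.49 against 5.23, 5.51 and 4.68, and CD52, a short lipid-anchored glycoprotein of lymphocytes, read 4.23 and 4.06 against 4.55, 4.98 and 4.55. In these 3 genes every MondoA shRNA clone was above both controls. They were named by their p, so their separation is not a further result and is not set against MS4A1, CR2 or CD40. The differences were 1.27 ± 0.23, 1.52 ± 0.30 and 0.55 ± 0.18 (SE), each with an adjusted p of 0.833 by limma. Of the 22 genes, 11 had means below the median gene, where MS4A1, CR2 and CD40 also lay.

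The partners of the surrogate chain in the pre-B receptor included 3 of 7 measured genes higher at an unadjusted limma p under 0.05 and 0 lower, with a list median of 0.25. All 7 had a mean level above 5, where 6.39% of genes reached that p in either direction. CD79A and CD79B, the signalling chains of the receptor, differed by 0.91 ± 0.18 and 0.25 ± 0.04 (SE), and the kinase LYN by 0.46 ± 0.08 (SE). For CD79A the control clones read 7.38 and 7.35 and the MondoA shRNA clones 8.46, 7.98 and 8.38, so the groups were apart by more than their spread. Each of the 3 had an adjusted p of 0.833 by limma. Every MondoA shRNA clone was above both controls for 3 of the 7 genes and below both for 0. Among genes with a mean level above 5 these shares were 7.74% and 9.26%. CD79A, CD79B and LYN were named by their p, so their separation is not a further result. It is not set against VPREB1 and VPREB3, for which the groups overlapped.

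Among 16 tetraspanins and partners of CD9, 1 was higher and 2 were lower at an unadjusted limma p under 0.05, beside 1.55% and 2.18% of all genes. The list median was 0.01. Every MondoA shRNA clone was above both controls for 2 genes (CD82 and TSPAN33) and below both for 2 (CD81 and TSPAN13). Among all genes these shares were 4.85% and 5.18%. They were 7.74% and 9.26% among genes with a mean level above 5, as 12 of the 16 had. CD82 differed by 0.58 ± 0.17, CD81 by -0.18 ± 0.03 and TSPAN13 by -0.35 ± 0.11 (SE), all with an adjusted p of 0.833 by limma. CD81, which joins CR2 in the B-cell co-receptor, read 10.4 in both controls and 10.3, 10.2 and 10.3 in the MondoA shRNA clones. It was the 1 of 3 measured co-receptor partners at an unadjusted limma p under 0.05, which 3.73% of all genes reached. That list's median difference was 0.00. The list of the CD40 ligand and its signalling genes lacked the ligand itself (CD40LG), TRAF2 and BIRC3, which were not measured. Of its 9 measured genes, 0 reached an unadjusted p under 0.05 in limma. RELB, an NF-kappaB subunit, had the lowest p there (difference 0.20, adjusted p = 0.833 by limma). Of 5 measured relatives of MS4A1 and CD99, 0 reached it either, and MS4A3 came first (difference 0.11, adjusted p = 0.833 by limma). The median differences of these last lists were 0.06 and 0.00.

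**Figure D5:**
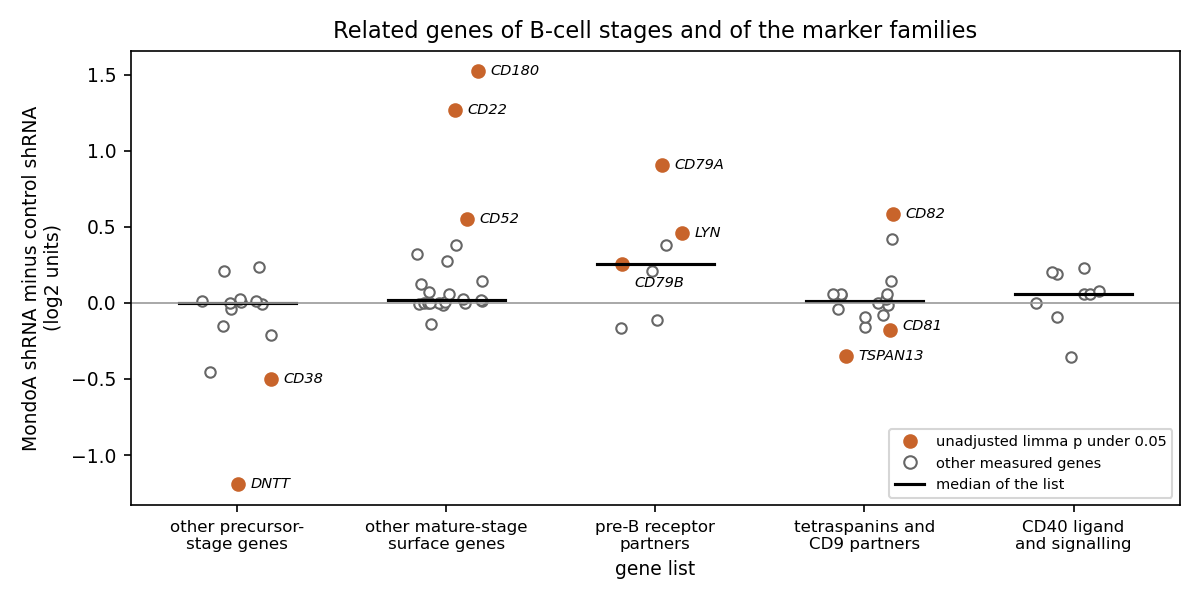
Difference between the groups (MondoA shRNA minus control shRNA, log2 units, vertical axis) for the measured genes of 5 related lists, with genes at an unadjusted limma p under 0.05 filled and named and each list's median as a line. DNTT (-1.19) and CD38 (-0.50) lie at the bottom of the precursor list, and CD180 (1.52), CD22 (1.27) and CD79A (0.91) at the top of theirs.

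The 3 members with the widest range over the arrays were MS4A1 (0.82), CD99 (0.74) and CD24 (0.64). For each, the most similar genes were found among 7444 others with a mean level above 5, by the root mean square distance of values set to 0 at their own mean, over 5 arrays. Nearest to CD99 were STC2, a secreted glycoprotein hormone, at a distance of 0.07, and TAFA5, a secreted chemokine-like protein, at 0.07. STC2 read 6.44 and 6.47 in control and 5.96, 5.77 and 5.84 in MondoA shRNA clones, with all of the latter lower. CD24 was closest to GALNT1, an enzyme that starts O-linked sugar chains (distance 0.02), and ABCB4, a phospholipid transporter (0.02), both also lowest in MondoA shRNA clone 1. For MS4A1 the closest were ARMC6 (0.05) and PSME2, a proteasome activator subunit (0.09), each highest in MondoA shRNA clone 3, at 7.67 and 7.62. ARMC6 otherwise read 6.85 to 7.05. As the nearest genes were chosen for their likeness to a member, the clones in which they read high or low follow from that choice.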

How the data were processed

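RNA (200 ng per clone, per the labels' protocols) was labelled and hybridised, and the authors summarised the probes with RMA in Affymetrix Expression Console 1.1, per the submitters' processing notes. The deposited values are taken as log2, which is what RMA gives, since the base is not stated, and they were used as they stand. Genome build and array dates are not given in the sources used here. Of 33297 probe sets, 19460 have exactly 1 symbol in the platform annotation and were used. The 1754 with several symbols and the 12083 with none were left out. Where a gene had several probe sets, the brightest over the 5 arrays was kept, which left 18417 genes.

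Groups follow the titles. Each gene was tested with limma 3.58.1 in R 4.3.3 (linear model, empirical Bayes, two-sided, Benjamini-Hochberg over all genes). The fit was also run on simulated data with random noise and no equal values across arrays. That run does not cover genes with equal values. No replicate block was used, because the labels give same-numbered clones no common origin. The members and lists were chosen with earlier results of these data known. Named are the 10 members, MLXIP, the 2 genes nearest in pattern to each of the 3 members of widest range, and from each related list up to 4 genes at an unadjusted p under 0.05, or else the 1 with the lowest p. IGLL1, NKG7, ENG, SPN, CD69, TSPAN33 and the other B-lineage and plasma cell genes were named after their values were seen. Alternatives changed the normalisation, the genes and probe sets in the fit, the variance model, the weights, the pairing and the arrays kept.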

Additional observations from a re-analysis of the deposited data

How the results depend on the processing

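The number of members past the adjusted threshold in limma was 0 and ran from 0 to 1 with 1 array left out, the 1 being CD99 without control clone 1, and it was 0 under the other alternatives. The number at an unadjusted p under 0.05 was 1 (CD99). It became 2 after quantile normalisation (CD24 and CD99), 0 with the replicate number as a block, and 1 to 3 with 1 array left out, the extra ones being VPREB3 and CR2 without control clone 2 and CR2 without control clone 1. CR2 has 3 equal MondoA shRNA values, and a single control clone is there taken to vary as the other clones do. Under the block, limma gave CD99 an unadjusted p of 0.0578 and an adjusted p of 0.828. The block fit sets MondoA shRNA clone 3 aside, so it gives the differences without that array, and same-numbered clones did not deviate together (correlations of -0.304 and -0.243 over genes with a mean level above 5).

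CD99 ran from -0.71 to -0.50, CD24 from -0.40 to -0.21, VPREB3 from -0.19 to -0.02 and MS4A1 from 0.05 to 0.61. Differences near 0 changed sign. CD34 was 0.096 without MondoA shRNA clone 1. MME was -0.016 with array weights, and it was -0.066 or -0.0049 when control clone 2 or MondoA shRNA clone 1 was left out. CD9 was 0.0069 and CR2 0.053 without control clone 1. VPREB1 was -0.017 or -0.064 when control clone 2 or MondoA shRNA clone 2 was left out. With 1 array left out the ranges were -0.14 to 0.096 for CD34, -0.066 to 0.097 for MME, -0.17 to 0.0069 for CD9, -0.064 to 0.23 for VPREB1 and -0.066 to 0.053 for CR2. The precursor minus mature difference kept its sign, from -0.34 to -0.16 with 1 array left out. Filtering to brighter genes left no mature marker, so no such difference was formed there.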
